A study of Mus musculus with 6 samples.

Results

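The nuclear genes for the subunits of the mitochondrial respiratory chain were followed in RNA sequencing of the mouse prefrontal cortex. Members were taken by gene symbol (Nduf a, b, c, s and v genes, Sdha to Sdhd, Uqcr genes, Cox4 to Cox8 genes and Atp5 genes a to o, with the Ndufaf assembly factors left out), which gave 83 of the 23284 genes in the table. They were 37 genes of complex I, 4 of complex II, 8 of complex III, 19 of complex IV and 15 of complex V. The samples were 3 libraries from wild-type C57BL/6 mice housed singly and 3 from wild-type C57BL/6 mice housed in groups, in each case for 6 days and at 8 to 10 weeks of age. No treatment other than housing is labelled, and no label ties a library to an individual mouse; the p-values below therefore reflect library-to-library spread, part of which may be technical. In tissue RNA, fewer cells of a type and less RNA per cell cannot be told apart.

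Complex I, NADH dehydrogenase, and complex II, succinate dehydrogenase, pass electrons to ubiquinone; complex III hands them to cytochrome c, complex IV uses them to reduce oxygen, and complex V, ATP synthase, makes ATP from the proton gradient that complexes I, III and IV build. Each complex except complex II also holds subunits encoded in mitochondrial DNA, which have no row in the table and were not analysed here. Neurons depend on this pathway for most of the ATP that restores ion gradients after firing and transmitter release. Several complex IV subunits have an additional, tissue-restricted gene, best known from heart and skeletal muscle, lung or testis.

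Total counts were 32902303, 33176093 and 33428512 in single-housed libraries 1 to 3, and 25858355, 30931952 and 32088512 in group-housed libraries 1 to 3. All 7 markers of cortical excitatory neurons were present in every library, with summed levels of 5910 to 6465 CPM (counts scaled to library size, with TMM factors) in single-housed and 5684 to 6720 CPM in group-housed mice. The 11 measured markers of striatal projection neurons, a cell type of the neighbouring striatum, were unevenly present: their mean log2 CPM was 6.26, 5.29 and 3.33 in single-housed libraries 1 to 3, and 5.21, 3.25 and 3.72 in group-housed libraries 1 to 3. Single-housed libraries 1 and 2 and group-housed library 1 thus stand apart, and the housing counts and the medians by complex are given below with and without these 3 libraries. The 6 oligodendrocyte markers summed to 4042, 3830 and 1910 CPM in single-housed libraries and 5148, 1882 and 2962 CPM in group-housed libraries. Markers of skeletal muscle summed to 67.3 to 70.8 CPM in single-housed and 64.4 to 88.0 CPM in group-housed mice, and those of cardiac muscle to 8.85 to 10.6 CPM in single-housed and 9.56 to 11.6 CPM in group-housed mice. Most of the skeletal muscle sum was Pvalb, which is also a marker of parvalbumin interneurons. It stood at 44.5, 43.6 and 46.9 CPM in single-housed and 61.2, 40.6 and 51.1 CPM in group-housed libraries. Acta1 followed, at 16.4 to 21.8 CPM, and the next highest skeletal muscle marker, Myh2, reached at most 2.79 CPM.

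Motifs of known regulators of mitochondrial genes stood in a larger share of member promoters than of all promoters, given here as a description. Promoters, here the 250 bases before and 50 bases after each start in RefSeq (mouse build GRCm38.p6), were found for 67 of the 83 members, in 72 windows. The NRF1 motif (GCGCA, any base, then GCGC), bound by nuclear respiratory factor 1, stood on either strand in 25% of the member windows and in 4.6% of all 32851 windows of the table. The ETS motif CCGGAAG, bound by the GABP factor (also called NRF2), stood in 22.2% of member windows and 8.86% of all windows, and the YY1 motif AANATGGCG in 13.9% of member windows and 2.38% of all windows. At least 1 of these 3 motifs was present for 17 of 32 complex I members, 3 of 3 in complex II, 3 of 5 in complex III, 3 of 13 in complex IV and 11 of 14 in complex V. A match describes the letters only and is not evidence of binding. The 6 members with more than 1 of the 3 motifs in the window are printed below, chosen after the matches were seen, to show how the motifs lie near the start. Each line is the stretch of 250 bases that ends at the base before the start, 5′ to 3′ on the gene's own strand, with matches in capitals.
Ndufs6: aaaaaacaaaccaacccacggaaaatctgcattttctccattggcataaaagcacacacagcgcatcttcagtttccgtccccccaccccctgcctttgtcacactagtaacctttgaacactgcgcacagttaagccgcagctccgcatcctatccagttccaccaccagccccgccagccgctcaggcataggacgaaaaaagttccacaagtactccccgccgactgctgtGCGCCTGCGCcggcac
Sdhd: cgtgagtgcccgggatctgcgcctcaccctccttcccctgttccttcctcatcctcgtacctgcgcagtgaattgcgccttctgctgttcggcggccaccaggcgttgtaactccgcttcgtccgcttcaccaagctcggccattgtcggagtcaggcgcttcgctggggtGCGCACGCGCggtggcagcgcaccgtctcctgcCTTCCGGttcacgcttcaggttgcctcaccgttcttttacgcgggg
Cox6a1: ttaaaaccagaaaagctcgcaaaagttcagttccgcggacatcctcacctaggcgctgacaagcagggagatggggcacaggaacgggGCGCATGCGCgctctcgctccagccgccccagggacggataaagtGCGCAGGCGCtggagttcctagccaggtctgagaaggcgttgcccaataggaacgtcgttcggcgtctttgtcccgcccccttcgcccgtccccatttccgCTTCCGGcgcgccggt
Atp5h: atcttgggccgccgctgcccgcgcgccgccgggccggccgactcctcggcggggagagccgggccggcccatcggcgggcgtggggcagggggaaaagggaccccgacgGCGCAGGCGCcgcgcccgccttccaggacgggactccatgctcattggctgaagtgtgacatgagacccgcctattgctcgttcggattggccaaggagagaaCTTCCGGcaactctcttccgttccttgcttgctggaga
Atp5j: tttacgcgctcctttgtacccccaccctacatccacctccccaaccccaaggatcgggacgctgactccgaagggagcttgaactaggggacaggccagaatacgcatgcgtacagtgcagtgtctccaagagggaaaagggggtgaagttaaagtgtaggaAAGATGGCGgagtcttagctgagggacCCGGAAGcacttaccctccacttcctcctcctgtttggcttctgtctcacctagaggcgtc
Atp5k: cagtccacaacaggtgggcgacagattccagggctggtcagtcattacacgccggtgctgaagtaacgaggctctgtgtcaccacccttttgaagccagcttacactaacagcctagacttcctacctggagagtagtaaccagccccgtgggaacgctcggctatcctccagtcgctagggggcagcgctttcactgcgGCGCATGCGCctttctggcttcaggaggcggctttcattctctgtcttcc
These stretches are, in the order printed, chr13:73328483-73328732, chr9:50603850-50604099, chr5:115348959-115349208, chr11:115419920-115420169, chr16:84834977-84835226 and chr5:108434400-108434649, all on the minus strand. Counting back from the start, the single NRF1 match of Ndufs6 covered bases -16 to -7 and that of Atp5k bases -50 to -41; the YY1 match of Ndufs6 and the ETS match of Atp5k lie in the 50 bases after the start, which are not printed. Cox6a1, the common isoform of a complex IV subunit, held 2 NRF1 matches, at -162 to -153 and -117 to -108, and an ETS match at -16 to -10. Sdhd, a membrane anchor of complex II, and Atp5h, a peripheral stalk subunit of ATP synthase, each held an NRF1 match followed by an ETS match nearer the start, at -46 to -40 in Sdhd and -38 to -32 in Atp5h. No matches printed here overlapped each other. Atp5j, which encodes coupling factor 6 of the stalk, is divergent from Gabpa, the gene of a GABP subunit: their promoter windows share 247 bases, which hold the ETS match at -61 to -55 and the YY1 match at -88 to -80.

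The members ranged from undetected to among the most abundant transcripts of the tissue. Levels are given per length, as RPKM, reads scaled by the deposited exon length and by total counts, and no test was made between genes. The median member stood at 105.6 RPKM, and 43 of 83 members exceeded 100 RPKM, a level passed by 602 of the 15258 genes that were tested. Together the members took 0.991% to 1.03% of all counts in single-housed libraries and 0.913% to 1.10% in group-housed libraries. The median level was 87.8 RPKM for complex I, 99.6 for complex II, 156 for complex III, 57.7 for complex IV and 140 for complex V. Complex IV includes most of the tissue-restricted isoforms, and its mean over members was 156 RPKM.

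**Figure D1:**
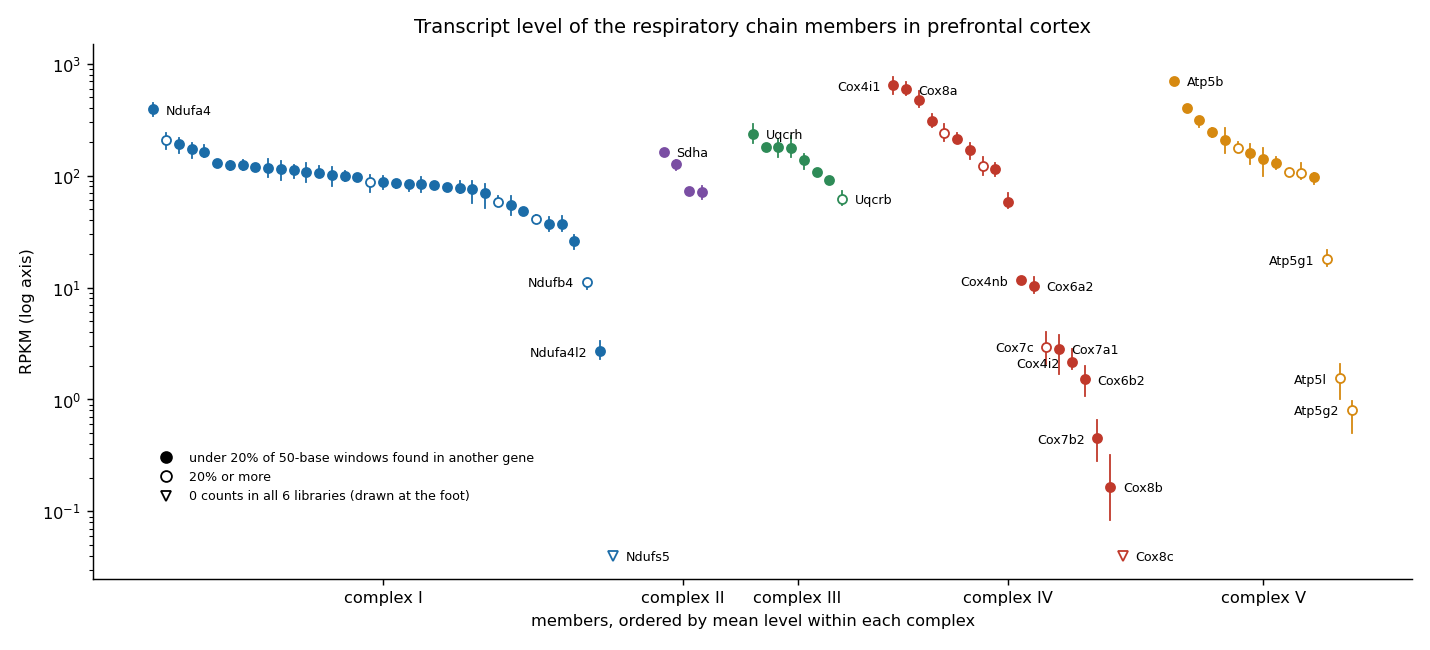
Mean RPKM over the 6 libraries (log axis) of each of the 83 members, ordered within complexes I to V; thin lines run from the lowest to the highest library, and open circles mark members with 20% or more of their 50-base windows found in another gene. At least 11 RPKM was reached by 71 of the 83 members, and the genes far below are either tissue-restricted isoforms or members with shared windows.

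Among the genes taken into complex I by symbol, Ndufa4 was highest, a small subunit now assigned to complex IV. It stood at 375, 394 and 397 RPKM in single-housed libraries and 447, 339 and 403 RPKM in group-housed libraries. Its group-housed libraries 1 and 2 enclosed all the single-housed values. Ndufb9 came next, with a mean of 206 RPKM. The 7 nuclear core subunits, which form the arm that takes electrons from NADH to ubiquinone, had a median of 85.4 RPKM. The 29 accessory subunits, with Ndufa4l2 left out and Ndufa4 kept, had a median of 88.0 RPKM. Ndufs3, a core subunit, averaged 41.3 RPKM over the 6 libraries.

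Complex II had the narrowest range. Sdha, the flavoprotein that oxidises succinate, stood at 160, 167 and 164 RPKM in single-housed and 160, 158 and 166 RPKM in group-housed libraries. The iron-sulphur subunit Sdhb averaged 127 RPKM, and the membrane anchors Sdhd and Sdhc 72.6 and 71.9 RPKM, over all 6 libraries. The catalytic subunit was thus above both anchors in each library, since Sdhd reached at most 76.5 RPKM and Sdhc at most 80.3 RPKM.

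In complex III the small hinge protein gene Uqcrh was highest, with 223, 227 and 233 RPKM in single-housed libraries and 288, 195 and 254 RPKM in group-housed libraries. Uqcrc1 and Uqcrc2, the core proteins, averaged 181 and 107 RPKM, and Uqcrfs1, the Rieske iron-sulphur protein, 91.0 RPKM. Uqcrb was lowest at 62.0 RPKM. Complex IV was led by Cox4i1, Cox8a and Cox6a1, nuclear subunits around the catalytic core, at means of 641, 591 and 472 RPKM. Cox4i1 had 592, 647 and 618 RPKM in single-housed libraries and 761, 541 and 685 RPKM in group-housed libraries. The symbol rule also took in Cox4nb, now named Emc8, a subunit of the endoplasmic reticulum membrane complex that is no respiratory chain subunit; it lies 177 bases from Cox4i1 in divergent orientation (build mm9) and stood at 11.6 RPKM.

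Complex V held the most abundant member. Atp5b, the catalytic beta subunit of the F1 head (chr10:127520363-127527444, build mm9), had 709, 712 and 677 RPKM in single-housed libraries and 720, 654 and 735 RPKM in group-housed libraries. Its partner Atp5a1, the alpha subunit, averaged 402 RPKM. The gamma subunit gene Atp5c1 averaged 96.6 RPKM, delta (Atp5d) 246 RPKM and epsilon (Atp5e) 140 RPKM. Of the 3 genes that encode the same mature c-ring protein, Atp5g3 averaged 312 RPKM, Atp5g1 17.8 RPKM and Atp5g2 0.813 RPKM.

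Several subunits used in every tissue were listed far below their partners. Ndufs5, an accessory subunit of complex I, had 0 counts in every library, where a count of 0 allows up to 0.116 CPM in the shallowest library. Atp5g2, Atp5l, which encodes subunit g of ATP synthase, Cox7c, a small complex IV subunit, and Ndufb4, an accessory subunit of complex I, averaged 0.813, 1.55, 2.97 and 11.3 RPKM. After these levels were seen, each member's transcript (GENCODE M21, the protein-coding transcript nearest in length to the deposited length) was cut into windows of 50 bases, and windows that also occur in a transcript of another gene were counted. The share was 68.5% for Atp5l, 56.2% for Atp5g1, 48.2% for Cox7c, 46.4% for Atp5g2, 41.2% for Ndufs5 and 37.0% for Ndufb4, and most of the other genes were annotated as processed pseudogenes. By contrast, 47 of the 83 members had no such window.

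Among the 74 members left after setting aside 8 tissue-restricted isoforms and Cox4nb, the 39 without a shared window had a median of 120 RPKM and a minimum of 36.8 RPKM. The median was 114 RPKM for the 19 with up to 20% shared windows, 115 RPKM for the 8 with 20% to 40% and 10.4 RPKM for the 8 with 40% or more. Exceptions in the last class were Atp5h at 106 RPKM, Uqcrb at 62.0 RPKM and Ndufa12, an accessory subunit of complex I, at 58.0 RPKM. Ndufs5 also shared 95.1% of its exon bases on the same strand with another row of the table, BC002163, which had 645, 759 and 697 counts in single-housed and 634, 578 and 788 counts in group-housed libraries; 3 of the exons listed for that row lie inside Ndufs5 on chromosome 4 and 1 lies on chromosome 16. How multiply mapped or overlapping reads were counted is not given in the sources used here, so the part of shared sequence in these low values was not tested, and the levels of members with shared windows are uncertain.

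The tissue-restricted isoforms were present at a few percent or less of their common partners. Shares were computed within each library, per length, so they do not depend on library scaling. Cox6a2, the heart and skeletal muscle isoform of subunit VIa, made up 2.31%, 2.05% and 2.05% of the pair with Cox6a1 in single-housed libraries and 2.11%, 2.14% and 2.28% in group-housed libraries. The groups overlapped, and the share was steady over all 6 libraries. Cox7a1, also a heart and muscle isoform, made up 1.99%, 1.68% and 1.42% of the pair with Cox7a2 in single-housed libraries and 1.53%, 1.17% and 1.98% in group-housed libraries. Cox4i2, the lung isoform of subunit IV that responds to oxygen, made up 0.471%, 0.288% and 0.305% of the pair with Cox4i1 in single-housed libraries, against 0.286%, 0.360% and 0.324% in group-housed libraries. Single-housed library 1 was the highest for Cox4i2, and it was also the highest for the share of Ndufa4l2, the hypoxia-inducible relative of Ndufa4, at 0.878% against 0.576% to 0.766% in the other libraries. That library also had the highest mean log2 CPM of the 9 mural cell markers, at 3.96 against 3.64 to 3.86 in the others; the part of these cells in the isoform shares was not tested.

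Testis isoforms had few or no counts. Cox6b2 made up 0.523%, 0.541% and 0.469% of the pair with Cox6b1 in single-housed and 0.559%, 0.505% and 0.339% in group-housed libraries. Cox7b2 had 5, 9 and 6 counts in single-housed and 5, 11 and 10 counts in group-housed libraries, and Cox8c had 0 counts in all. The muscle isoform Cox8b had 2, 1 and 3 counts in single-housed and 3, 1 and 1 counts in group-housed libraries. Its common partner Cox8a had 10444, 9958 and 10352 counts in single-housed and 9755, 8939 and 10849 counts in group-housed libraries. In none of the 9 isoform pairs did the groups separate. The difference in log2 ratio (single minus group) lay between -0.40 for Cox7b2 to Cox7b and 0.38 for Atp5g2 to Atp5g3, with exact two-sided permutation p of 0.3 and 0.2, and the Benjamini-Hochberg value over the 9 ratios was 0.8 for each. With 3 libraries against 3, the smallest p this test can give is 0.1.

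**Figure D2:**
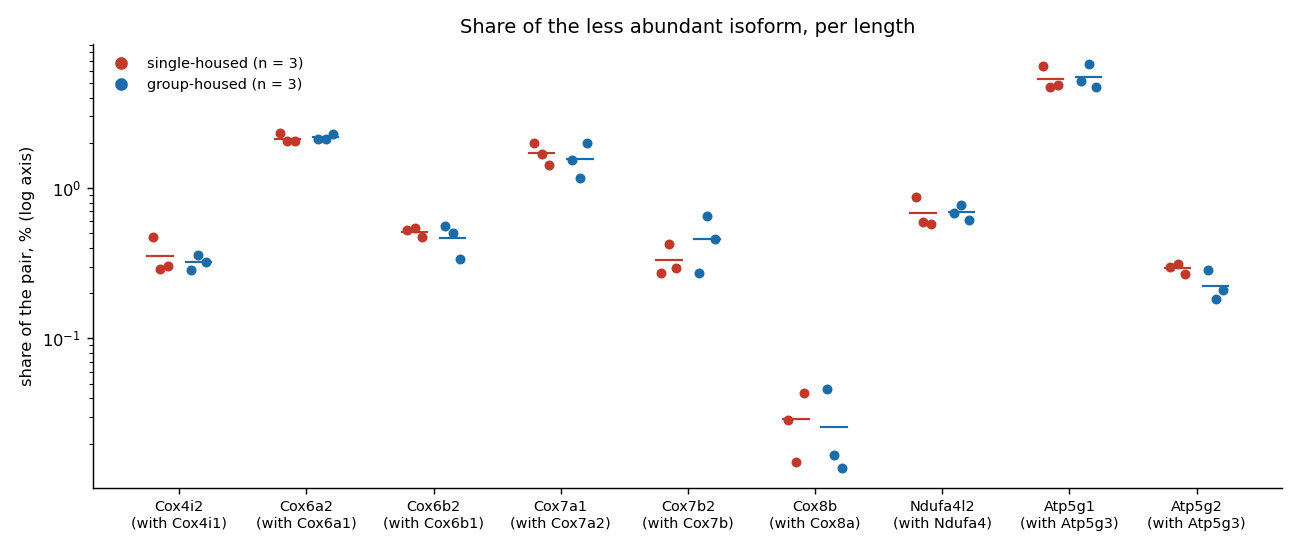
Share of each less abundant isoform in its pair, in percent on a log axis and per length, in the 3 single-housed (left, red) and 3 group-housed (right, blue) libraries of each pair; bars are group means. All shares lie between 0.0138% and 6.68%, and the groups overlap in every pair.

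No respiratory chain gene passed the test for a difference between housing conditions. In edgeR's quasi-likelihood test with Benjamini-Hochberg adjustment over all 15258 genes, 0 of the 79 members tested rose and 0 fell in single-housed mice, where the share called among all genes was 0% in each direction. The smallest adjusted p among members was 0.99994. At an unadjusted p under 0.05, 0 members stood out, against 1.56% of all genes, and DESeq2 and limma-voom also gave 0 members by either criterion. The 4 members not tested for low counts were Ndufs5, Cox7b2, Cox8b and Cox8c. The standard error of the log2 difference had a median of 0.102, and 67 of 79 estimates lay within 0.1 of 0.

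**Figure D3:**
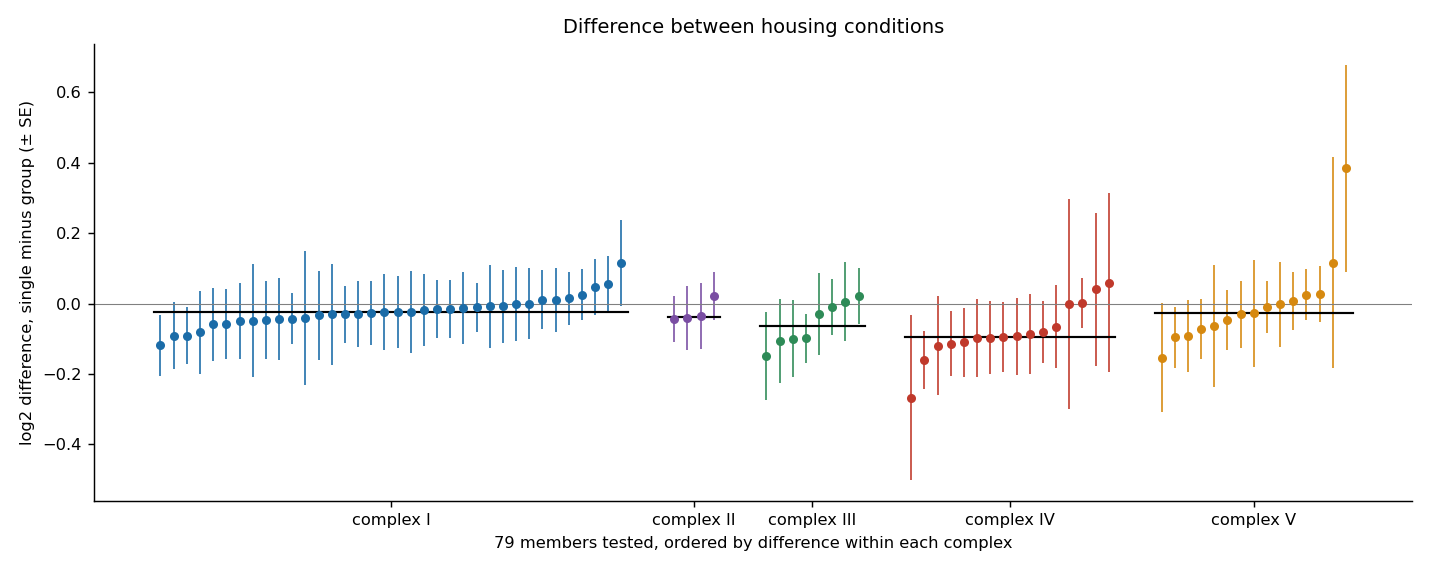
Log2 difference (single-housed minus group-housed, edgeR) of the 79 tested members with standard errors, ordered within complexes I to V, with the median of each complex as a black bar. The estimates cluster just below 0, the medians run from -0.09 in complex IV to -0.02 in complex I, and the wide bars belong to genes with few counts.

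Cox5a, a matrix-side subunit of complex IV (chr9:57369039-57380233, build mm9), had the smallest p of the members. It stood at 208, 198 and 201 RPKM in single-housed libraries and 231, 204 and 242 RPKM in group-housed libraries, a log2 difference of -0.16 ± 0.0823 (SE, n = 3 each; edgeR unadjusted p = 0.0861, adjusted 0.99994). Single-housed library 1 exceeded group-housed library 2, so the groups overlapped. Across complex IV, 13 of 16 tested members had an estimate below 0 and the median was -0.09; it was -0.0084 without group-housed library 1 and -0.20 without group-housed library 2. Cox8a, Cox7a2l, known for its part in supercomplex assembly, Cox4i1 and Cox6b1 had log2 differences of -0.11, -0.11, -0.10 and -0.08. The largest, -0.27 ± 0.234 for Cox7c, rests on 31 to 47 counts per library.

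Uqcrfs1 of complex III (chr13:30632181-30637185, build mm9) was the only 1 of the 79 members whose TMM-scaled values did not overlap between groups in either direction. Among all 15258 tested genes 742 did not overlap in either direction, and 2.4% were lower in single-housed mice without overlap. It stood at 84.4, 88.9 and 90.5 RPKM in single-housed libraries, against 95.2, 89.7 and 97.1 RPKM in group-housed libraries, with a log2 difference of -0.10 ± 0.0694 (edgeR unadjusted p = 0.192, adjusted 0.99994). On the RPKM scale, which uses total counts only, single-housed library 3 exceeded group-housed library 2, so the separation depends on the scaling. The other 7 members of the complex had differences between -0.15 for Uqcr10 and 0.02 for Uqcrc1, with a median of -0.06 over all 8, or -0.0073 without group-housed library 1 and -0.14 without group-housed library 2.

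Complex I had 29 of 36 estimates below 0 and a median of -0.02, which was 0.04 without group-housed library 1, -0.12 without library 2 and 0.01 without library 3. Its smallest p values belonged to the accessory subunits Ndufa12 (-0.12 ± 0.0866), Ndufa6 (-0.09 ± 0.0801), Ndufb3 (-0.09 ± 0.0954) and Ndufb4 (0.11 ± 0.121), none of which passed. The core subunits had a median of -0.01. Moving the Ndufa4 genes to complex IV, with non-subunits left out, gave medians of -0.02 in complex I and -0.09 in complex IV. In complex II, Sdhd, Sdhb and Sdhc had log2 differences of -0.04, -0.04 and -0.04 and Sdha had 0.02, with a median of -0.04 over the complex, or 0.02 without group-housed library 3. Complex V had 10 of 15 estimates below 0 and a median of -0.03. Without group-housed library 1, 2 or 3 in turn the median of complex V was 0.0064, -0.12 or 0.02, and without single-housed library 3 it was 0.0076. Atp5g2 had the highest estimate, 0.38 ± 0.295 on 10 to 21 counts per library, and Atp5j, Atp5k (subunit e) and Atp5h had -0.10, -0.15 and -0.09. Atp5b stood at -0.01 ± 0.0743.

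By direction alone, 61 of 79 members had an estimate below 0, against 49.3% of all genes, and the median was -0.03 against 0.0015 for all genes. This tally rested on single libraries. It was 35 of 80 without group-housed library 1 and 39 of 79 without group-housed library 3, with medians of 0.01 and 0.0002. Without group-housed library 2 it was 72 of 79 with a median of -0.13, and 20 members, all with estimates below 0, had an unadjusted p under 0.05, against 5.22% of all genes in that fit, with 0 past the adjusted threshold (edgeR). Leaving out the 3 libraries with high striatal markers kept only single-housed library 3, against group-housed libraries 2 and 3. That fit gave 41 of 80 and a median of -0.0027, with medians of 0.01, 0.0038, -0.0086, -0.03 and 0.0085 for complexes I to V. With a single library in 1 group, only its effect sizes are given. The striatal marker mean as a covariate gave 68 of 79 and a median of -0.09. Both were chosen after the data were seen, and the covariate fit called 0 members.

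The members were spread more widely among group-housed than among single-housed libraries. Group-housed library 1 was the highest of the 6 libraries for 43 of 79 members, against 26% of all genes, and group-housed library 2 the lowest for 58, against 23.2% of all genes. The median deviation of the members from their own 6-library mean, in log2 CPM, was -0.001, -0.005 and -0.041 in single-housed libraries and 0.151, -0.164 and 0.091 in group-housed libraries. All 3 single-housed libraries lay between the lowest and the highest group-housed library for 59 members, against 40% of all genes. The SD of log2 CPM had a median of 0.0522 among single-housed and 0.177 among group-housed libraries for the members, and 0.0991 and 0.149 for all genes. The members whose SD was larger among group-housed libraries numbered 69, against 67.6% of all genes. With 3 libraries a group, the difference in spread was not tested.

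**Figure D4:**
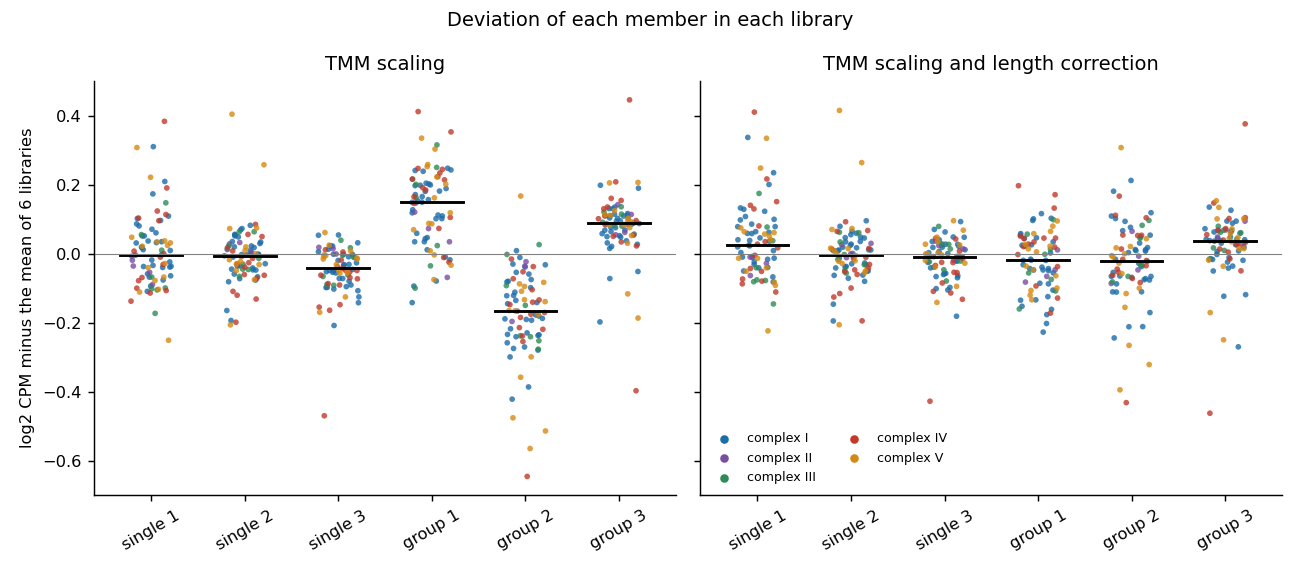
Deviation of each of the 79 tested members from its 6-library mean (log2 CPM), with single-housed libraries at left and group-housed libraries at right of each panel, before (left panel) and after (right panel) a correction for gene length; points are members coloured by complex and bars are medians. Before correction the medians are 0.151 in group-housed library 1 and -0.164 in group-housed library 2; after it all 6 lie between -0.021 and 0.039.

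The difference between group-housed libraries 1 and 2, the ends of this spread, mostly fell with the deposited exon length. Group-housed library 1 exceeded library 2 for 73 of 79 members, against 53.2% of all genes, with a median log2 difference of 0.33. The short subunits differed most: the 15 members under 500 bases had a median of 0.46, the 17 from 500 to under 600 bases 0.42, the 16 from 600 to under 800 bases 0.35, the 11 from 800 to under 1200 bases 0.24 and the 15 from 1200 to under 2000 bases 0.08. Genes that are no member also fell with length above 600 bases, with medians of 0.32 (132 genes), 0.35 (103), 0.30 (325), 0.26 (1005) and 0.16 (2798) in these classes, and -0.15 for the 4555 genes of 4000 bases or more. The Pearson correlation of the difference with log2 length was -0.615 over the 79 members and -0.311 over all 15258 genes, given as a description, since genes of the same pair of libraries are not independent. The classes were chosen after the values were seen.

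**Figure D5:**
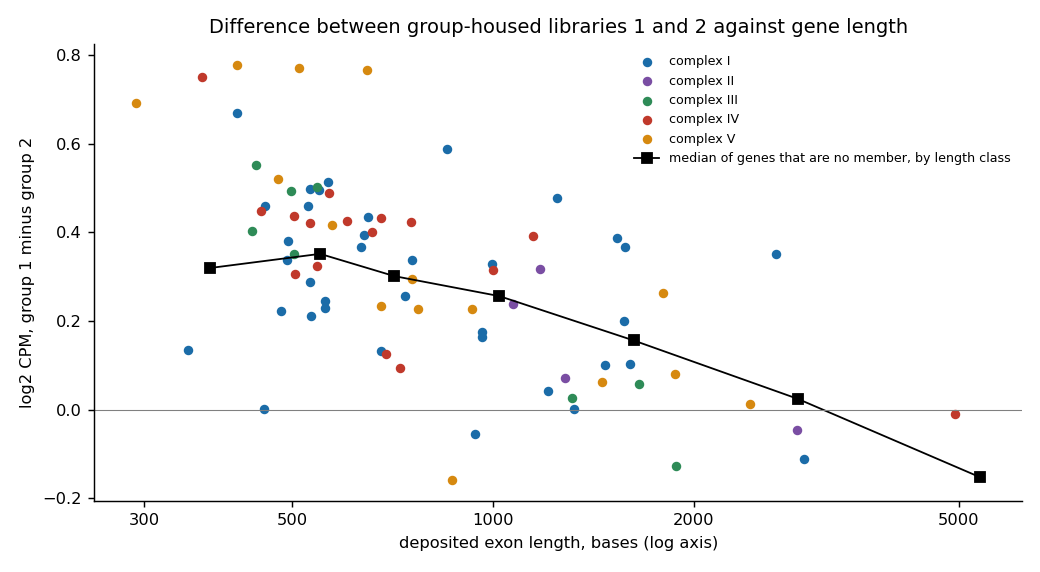
Difference in log2 CPM between group-housed libraries 1 and 2 for the 79 tested members (coloured by complex) against the deposited exon length (log axis), with medians of genes that are no member by length class, drawn at the median length of the class, as black squares. Members and other genes both fall with length, with medians of 0.46 and 0.32 under 500 bases and 0.08 and 0.16 from 1200 to under 2000 bases.

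Within complexes, small subunits mostly differed more between group-housed libraries 1 and 2 than large subunits did. Atp5e, the epsilon subunit of the F1 head, with 131, 140 and 140 RPKM in single-housed libraries, had 176, 98.2 and 157 RPKM in group-housed libraries. Its large neighbours in the same head, Atp5a1 and Atp5b, differed between group-housed libraries 1 and 2 by 0.01 and 0.08 in log2 CPM, against 0.78 for Atp5e, while Atp5c1, listed at 1799 bases, stood at 0.26. In complex III the 5 small subunits had a median of 0.49, and the core proteins with the Rieske protein had 0.03. In complex I the accessory subunits had a median of 0.36, and the core subunits had 0.10. Ndufc1, an accessory subunit, stood at 0.67 and Ndufs1, the largest core subunit, at -0.11. Listed length did not order every accessory subunit: Ndufs4, Ndufv3 and Ndufa11, listed at 1534, 1579 and 2661 bases, stood at 0.39, 0.37 and 0.35, and Ndufb4, listed at 454 bases, at 0.0026. The transcripts searched for shared windows held 1649, 1533, 869 and 922 windows for Ndufs4, Ndufv3, Ndufa11 and Ndufb4, counts close to transcript length in bases. The listed lengths of Ndufa11 and Ndufb4 are thus uncertain. The cytosolic ribosomal proteins, another group of short genes, had a median of 0.39, the mitochondrial ribosomal proteins 0.23 and the longer enzymes of the tricarboxylic acid cycle -0.04. A smooth curve over all genes, including the members, was fitted in each library to the deviation from the 6-library mean log2 CPM, on log2 length. Subtracting it brought the median difference of the members between group-housed libraries 1 and 2 to 0.02. Single members still deviated after it in group-housed library 1, as Ndufs3 did by -0.23 and Cox7a2l by 0.13. The curve then served as an offset in the edgeR fit, a correction added after the data were seen. In that fit 35 of 79 members had a housing estimate below 0, with a median of 0.01. Complex IV had 13 of 16 below 0 with a median of -0.04, and complex I had 8 of 36 with a median of 0.03. Among the group-housed libraries, the mean log2 CPM of oligodendrocyte and striatal markers was also highest in library 1 and lowest in library 2. So was that of microglia, at 5.42, 5.04 and 5.22 in libraries 1 to 3, and of astrocytes, at 7.96, 7.78 and 7.93, although the summed CPM of the astrocyte markers was lowest in library 1. Cortical excitatory markers ran the opposite way, at 7.81, 8.12 and 8.08. In single-housed libraries 1 to 3, oligodendrocyte markers stood at 8.66, 8.58 and 7.54 and striatal markers at 6.26, 5.29 and 3.33. The median deviations of the members in those libraries were -0.001, -0.005 and -0.041. The part of these cell types in the spread was not tested, and the labels give no measure of RNA quality.

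Other genes of the pathway were likewise not called. Of the respiratory chain assembly factors, 29 were tested, 0 rose and 0 fell (edgeR, adjusted), 0 had an unadjusted p under 0.05, and the median log2 difference was -0.02. The 9 carriers and subunits outside the symbol rule had a median of -0.06 and 0 calls. They include Cyc1, cytochrome c1 of complex III, at 149 RPKM, Cycs, somatic cytochrome c, at 4.29 RPKM, and Ndufab1, the acyl carrier protein subunit of complex I, at 5.46 RPKM. The search for shared windows covered the members only. The part of shared sequence in the low values of Cycs and Ndufab1 was therefore not tested, and these levels are uncertain. All 9 carriers and subunits had an estimate below 0, against 49.3% of all genes, from -0.24 for Ndufab1 to -0.0008 for Usmg5. For 8 of the 9, group-housed library 1 exceeded library 2, against 53.2% of all genes, with a median log2 difference of 0.38. No tally of the 9 without single libraries is given here. Of 21 tested regulators of mitochondrial biogenesis, 0 were called and 3 had an unadjusted p under 0.05, against 1.56% of all genes: Polg2, an accessory subunit of the mitochondrial DNA polymerase (-0.55), Tfb1m, a mitochondrial ribosomal RNA methyltransferase (0.29), and Yy1, a transcription factor (-0.20). The coactivator Ppargc1a stood at 45.3, 45.5 and 48.5 CPM in single-housed libraries and 44.5, 52.4 and 46.1 CPM in group-housed libraries. Nrf1 had a log2 difference of -0.05 ± 0.0946 and Gabpa had 0.02 ± 0.0895; both encode factors whose motifs stand in the promoters printed above. Enzymes of the tricarboxylic acid cycle, 19 tested, had 0 calls and a median of 0.01.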

How the data were processed

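RNA of the prefrontal cortex was measured in 6 libraries made with a stranded mRNA kit, per the labels' protocols. FastQC, STAR and featureCounts with mouse build mm9 were used, per the submitters' processing notes; no source used here gives their settings for strand, overlapping or multiply mapped reads. The authors deposited raw counts, 1 column a library, without normalization, and the exon length of each gene is that deposited beside them. Exons of 10 members overlap another row of the table on either strand, and those of 1 member on the same strand.

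Groups came from the housing label. The main test was edgeR 4.0.16 (R 4.3.3), a quasi-likelihood test on 3 single-housed against 3 group-housed libraries with TMM scaling, Benjamini-Hochberg adjustment over all genes and a threshold of 0.05; the filter (minimum count 10, minimum total 15) kept 15258 of 23284 genes. Standard errors were derived from the F statistic. RPKM were computed from total counts, CPM with TMM factors, and log2 CPM with a prior count of 2. Limits for counts of 0 use 3 counts and cover counting error only. The fit was tested on 3 sets of simulated data. It recovered 52.7% of 1.5-fold and 86.7% of 2-fold changes, and 100% of 4-fold and 8-fold changes. False calls numbered 34 over the 3 sets, each of 15258 genes. Changes under 1.5-fold were not simulated. Alternatives were DESeq2 1.42.0, limma-voom (limma 3.58.1), 2 other scalings, 2 other filters, leaving out each library and the replicate number as a block; the length correction (lowess span 0.3), the striatal covariate and the fit without 3 libraries were added after the data were seen. Genes named are the 4 members of smallest unadjusted p in complexes I, III, IV and V, all of complex II, the isoform pairs, and the highest and lowest level of each complex; other genes named, including those chosen by shared windows, length or motifs, were chosen after their values were seen. The members, lists and tests were chosen with earlier results of these data known.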

Additional observations from a re-analysis of the deposited data

How the results depend on the processing

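The count of members called for housing was 0 under every alternative that kept more than 1 library a group. With 3 libraries a group or fewer, the exact test of the isoform ratios cannot pass 0.05. Taking the mean over members in place of the median moved the level of complex I to 97.6 RPKM, complex II to 108.4, complex III to 146, complex IV to 156 and complex V to 187, so complex III, highest by the median, was below IV and V by the mean. Without 1 library at a time, log2 differences (single minus group) ranged from -0.051 to 0.038 for Atp5b, -0.21 to 0.072 for Atp5g1, -0.068 to 0.048 for Atp5g3, -0.19 to 0.023 for Atp5h, -0.18 to 0.16 for Cox4i2, -0.20 to 0.013 for Cox6a1, -0.12 to 0.29 for Cox6b2, -0.27 to 0.29 for Cox7a1, -0.12 to 0.043 for Ndufa4, -0.24 to 0.054 for Ndufa4l2, -0.0057 to 0.056 for Sdha, -0.13 to 0.024 for Sdhb and -0.13 to 0.019 for Sdhc. In the same way, differences in log2 ratio ranged from -0.21 to 0.10 for Atp5g1/Atp5g3, -0.12 to 0.23 for Cox4i2/Cox4i1, -0.087 to 0.0055 for Cox6a2/Cox6a1, -0.061 to 0.30 for Cox6b2/Cox6b1, -0.049 to 0.32 for Cox7a1/Cox7a2, -0.094 to 0.60 for Cox8b/Cox8a and -0.23 to 0.070 for Ndufa4l2/Ndufa4. Under the length correction Atp5b turned to 0.0088, Ndufa4 to 0.031 and Cox7a1 to 0.073, and under limma-voom Cox7a1 turned to 0.064. With the striatal covariate Atp5g3 turned to -0.022, Cox4i2 to -0.089 and Cox6b2 to -0.074. Without the 3 libraries with high striatal markers, Atp5h turned to 0.0085, Atp5k to 0.038, Cox4i2 to -0.16, Cox7a2 to 0.038, Ndufa4 to 0.078, Ndufb3 to 0.063, Sdhb to 0.0045, Sdhc to 0.049, Uqcrb to 0.067 and Uqcrh to 0.037. The cause of these turns was not tested, and none passed a threshold.

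Same-numbered libraries had correlations of deviations of 0.271, -0.318 and 0.17, and pairs with unlike numbers had -0.429 to 0.35. These correlations cannot tell whether libraries of the same number share anything else, and the labels do not say. With the replicate block 0 members were called, 57 of 79 were below 0, and Cox7a1 stood at 0.026. Members at under 50 counts per library, such as Cox7a1, Cox6b2 and Cox7c, are limited by counting error.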
